A study of Mus musculus with 2 samples.

Results

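Complex I, or NADH:ubiquinone oxidoreductase, is the entry point for electrons from NADH into the mitochondrial respiratory chain. Its nuclear genes were taken here as the protein-coding mouse genes whose symbol begins with Nduf, which gave 46 genes of 21474 protein-coding genes and 43346 gene rows in all. Of the 46 genes, 29 encode accessory subunits, 8 are assembly factors (Ndufaf1 to Ndufaf8), 7 encode core subunits, and Ndufa4 and Ndufa4l2 fall in none of these classes. The accessory subunit Ndufb1 (or Ndufb1-ps) of the distal membrane arm is not among the 46 genes, so the accessory set is not complete. A further 5 Nduf symbols of the annotation are not protein-coding, and those with a row in the tables are described below as copies of a subunit gene.

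The RNA came from B6NCrl mice on postnatal day 0, from a skeletal muscle that the labels do not specify. The series holds 1 group with no treatment named and 2 libraries, replicate 1 from pup 1 and replicate 2 from pup 2 of the same pregnant female, although both carry the same donor entry and their sex was not collected. Each library used 10 ng of total RNA longer than 200 nt, and the gene tables held 40455042 (replicate 1) and 37151129 (replicate 2) expected counts. All 11 skeletal muscle markers were above 1 TPM in both libraries, with a summed level of 142758 TPM in replicate 1 and 155757 TPM in replicate 2. Errors below are SDs over these 2 samples, which measure spread between animals only if the samples are separate pups, and no test was possible within a single group.

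Complex I passes electrons from NADH through a flavin and a chain of iron-sulfur clusters in its peripheral arm to ubiquinone, and couples this to proton pumping in its membrane arm. The core subunits carry out the chemistry and are conserved from bacteria. The accessory subunits surround the core, and assembly factors act on intermediates but are absent from the finished enzyme. Muscle fibres rely on this chain for sustained ATP supply, and inherited loss of a subunit or of an assembly factor is a known cause of mitochondrial disease.

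All 46 genes were expressed, at a mean level of at least 1 TPM (a level corrected for transcript length and scaled to the same total in each library), and all 36 subunit genes exceeded 100 TPM. The accessory genes had a median level of 520 TPM in replicate 1 and 535 TPM in replicate 2 (528 ± 10.3 TPM, SD, n = 2). The assembly factor genes had a median of 39.5 and 39.6 TPM (39.6 ± 0.0707 TPM, SD, n = 2), and the core genes one of 352 and 365 TPM (359 ± 8.99 TPM, SD, n = 2). Every assembly factor lay below every accessory and core gene in each pup. Ranked among the 12495 protein-coding genes of at least 1 TPM, the median accessory gene stood at percentile 98.1, the median assembly factor at 78.5 and the median core gene at 97.2.

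On the log2 TPM scale, with 0.1 TPM added to each median, the accessory median exceeded the core median by 0.56 in replicate 1 and 0.55 in replicate 2 (0.56 ± 0.01, SD, n = 2). The assembly median was below the core median by the same measure, with a log2 ratio of -3.15 in replicate 1 and -3.20 in replicate 2 (-3.18 ± 0.03, SD, n = 2). Both differences exceeded the spread between the libraries, but the order of accessory and core genes depended on the length correction. In expected counts, with no correction for length, the accessory to core log2 ratio was -0.69. The median model length was 626 nt for accessory genes and 1041 nt for core genes. Across the 46 genes TPM and model length had a Spearman's rho of -0.65, where TPM itself holds the length and all genes share the same libraries.

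**Figure D1:**
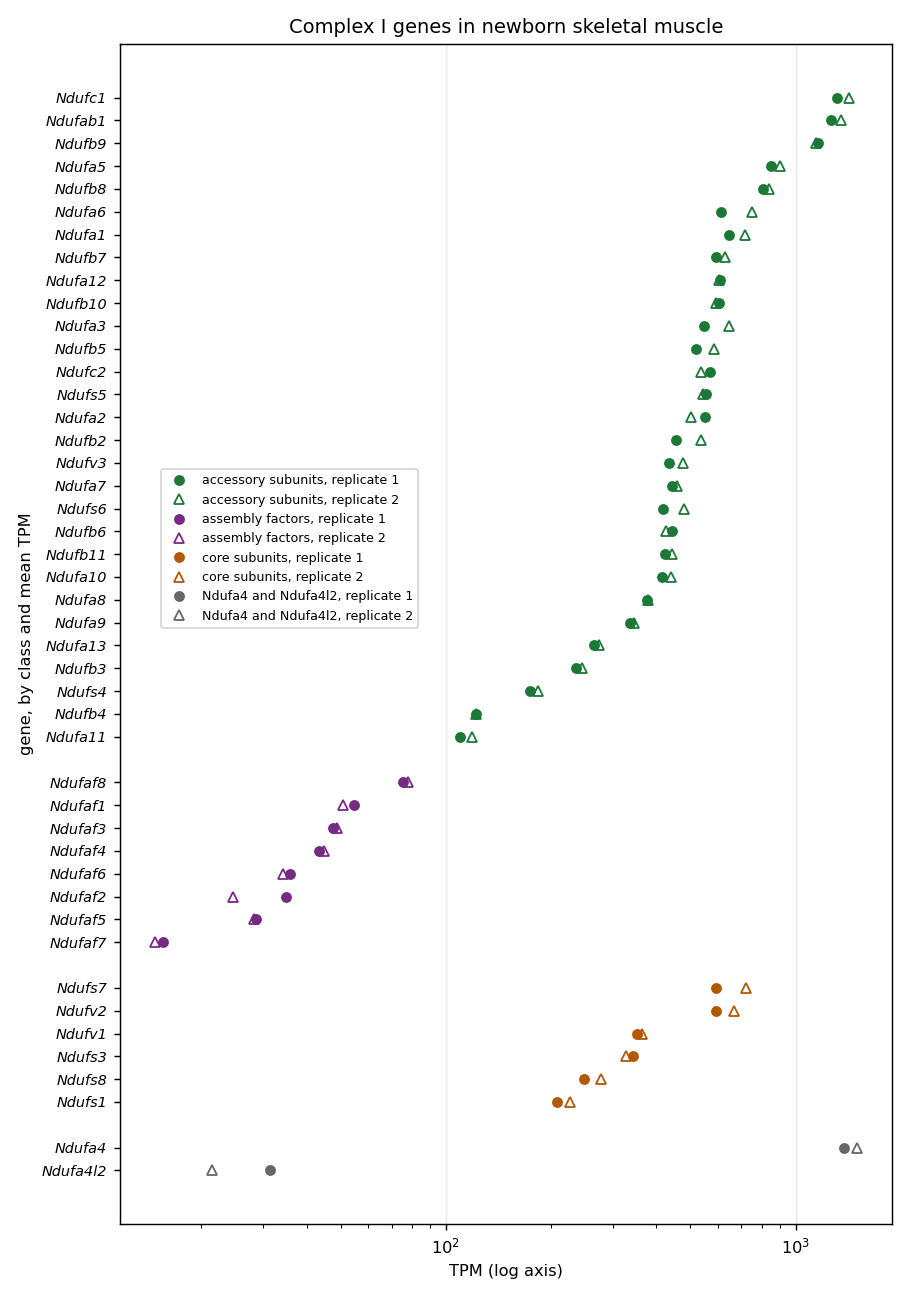
Level of 45 complex I genes in TPM (log axis), with replicate 1 as filled circles and replicate 2 as open triangles, ordered by class and mean level. The 8 assembly factor genes lie between 15.1 and 76.9 TPM on average, while the accessory genes start at 114 TPM and the core genes at 218 TPM.

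Among the accessory subunits the mean level spanned 11.9-fold, and 7.64-fold without Ndufb4 and Ndufa11, whose values are examined below. The highest was Ndufc1, a small subunit of the membrane arm, with 1309.8 TPM in replicate 1 and 1419 TPM in replicate 2 (1365 ± 77.4 TPM, SD, n = 2). Ndufab1, the mitochondrial acyl carrier protein that also serves fatty acid synthesis, had 1265 and 1348 TPM. Ndufb9, a membrane arm subunit of the LYR family, whose members bind acyl carrier protein, had 1163 and 1147 TPM. These 3 genes stood apart from the other accessory genes in both pups. Ndufa5, in the peripheral arm, followed with 848 and 905 TPM, and Ndufb8, in the distal membrane arm, with 806 and 842 TPM.

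The 5 lowest accessory genes were Ndufa13, Ndufb3, Ndufs4, Ndufb4 and Ndufa11. Ndufa13, also known as GRIM-19, had 266 TPM in replicate 1 and 274 TPM in replicate 2. Ndufb3, of the distal membrane arm, had 235 and 246 TPM. Ndufs4, whose loss in mice is used as a model of Leigh syndrome, had 174 and 183 TPM. Ndufb4 had 121.7 and 121.8 TPM, and Ndufa11, a membrane arm subunit, had 109.7 and 119 TPM. The remaining 19 accessory genes lay between the lowest and the highest of these groups, most of them around the class median.

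The value of Ndufa11 depended on the length of its model. The only Ndufa11 model in the files is 2661 nt long, against 545 nt for the transcript of the same ID in GENCODE M21. Scaled to the shorter length, the same counts gave 630 TPM in replicate 1 and 683 TPM in replicate 2, which would place Ndufa11 above the accessory median. Ndufa3 moved the other way, to 337 and 400 TPM on its longer M21 model of 515 nt (349 nt in the files), against 546 and 644 TPM as deposited. Which length fits these libraries was not tested.

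Ndufb4 shares its whole coding sequence with Ndufb4c, an intronless copy annotated as a processed pseudogene. Ndufb4 lies at chr16:37647170-37654453 (GRCm38, minus strand) and Ndufb4c at chr15:73809507-73809896 (GRCm38, minus strand). Of 387 coding nt of Ndufb4-201, 387 were identical in Ndufb4c. The first 90 coding bases of both are shown because a read that falls in them cannot be given to either gene by its letters. Capitals would mark differing bases, and there are none.
Ndufb4: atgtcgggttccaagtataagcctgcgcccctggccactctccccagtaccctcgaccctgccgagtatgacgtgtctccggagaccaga
Ndufb4c: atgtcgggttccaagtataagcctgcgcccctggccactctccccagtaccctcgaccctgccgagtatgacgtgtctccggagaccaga

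Most counts of the Ndufb4 pair were assigned to the copy. Ndufb4c held 4851 expected counts in replicate 1 and 4864 in replicate 2, against 1661 and 1578 for Ndufb4. That was 74.5% and 75.5% of the sum, and in TPM the copy exceeded the gene by a log2 ratio of 2.20 and 2.28 (2.24 ± 0.06, SD, n = 2). Gene and copy together had 679.3 and 712.8 TPM, a level above the accessory median in both pups. Of the stretches of 100 nt in Ndufb4-201, 33.4% also occur in the copy, so reads from the rest of that transcript can be told apart. Whether the copy itself is transcribed was not tested.

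Ndufab1 had the only other copy among the 46 genes with over 1% of the summed counts in both libraries. Gm4459, a processed pseudogene on the same chromosome, held 1681 expected counts in replicate 1 and 1610.3 in replicate 2, against 14102 and 14139.6 for Ndufab1. With the second copy Ndufab1-ps, the copies came to 10.8% and 10.3% of the sum. Gm4459 matched 380 of 381 coding nt of Ndufab1-206, the leading Ndufab1 transcript. The stretch around the single differing base, in capitals, is shown because it is the only letter by which coding reads of this transcript and Gm4459 can be separated.
Ndufab1: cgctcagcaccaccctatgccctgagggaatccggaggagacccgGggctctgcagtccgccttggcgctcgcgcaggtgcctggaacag
Gm4459: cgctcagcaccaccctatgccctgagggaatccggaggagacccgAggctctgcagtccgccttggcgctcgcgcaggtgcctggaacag

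Other copies of Nduf genes held few counts. Ndufs6b, a processed pseudogene copy of the peripheral arm subunit Ndufs6, matched 335 of 347 aligned coding nt (96.5%) and held 7.02 expected counts in replicate 1 and 11.01 in replicate 2, against 5838 and 6320 for Ndufs6. Its log2 TPM ratio to Ndufs6 was -8.65 and -8.17 (-8.41 ± 0.34, SD, n = 2). In the first 90 coding bases the pair differs at 7 positions, in capitals.
Ndufs6: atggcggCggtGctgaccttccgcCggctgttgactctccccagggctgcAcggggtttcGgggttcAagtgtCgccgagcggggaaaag
Ndufs6b: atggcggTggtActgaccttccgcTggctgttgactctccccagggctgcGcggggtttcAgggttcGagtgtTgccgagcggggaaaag

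In all, 12 of the 46 genes had at least 1 copy in the tables at 90% identity or more over at least 50% of the coding sequence, and all 14 such copies are pseudogenes. Ndufa11b, the copy of Ndufa11, held 1 count in replicate 1 and 2 counts in replicate 2. The copies of Ndufs3, Ndufs5 and Ndufa12 held at most 1.32% of the summed counts in either library, and the copies not named so far no more than 17.03 expected counts.

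**Figure D2:**
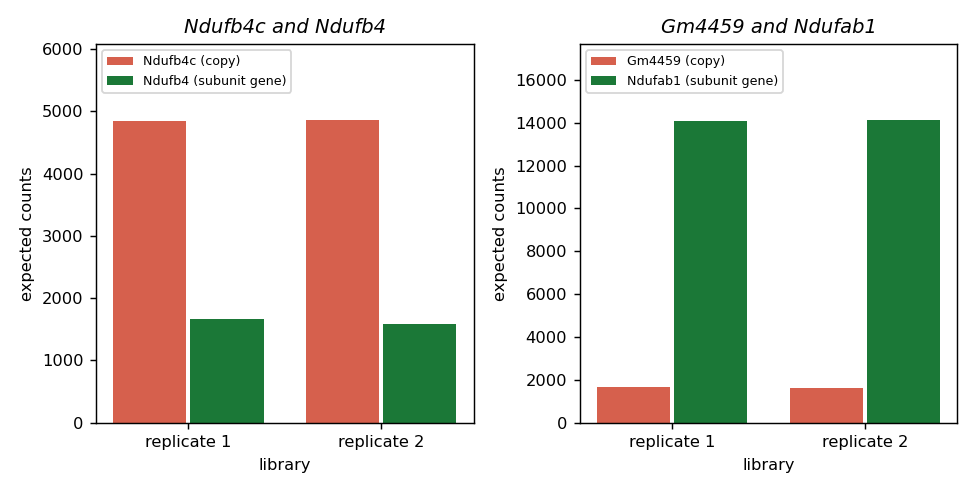
Expected counts assigned to a pseudogene copy (red) and to its subunit gene (green) in each library, for the Ndufb4 pair and the Ndufab1 pair. Ndufb4c takes 74.5% and 75.5% of the counts of its pair, while Gm4459 stays well below Ndufab1.

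The 8 assembly factors spanned 5.08-fold, and their roles below are those known from human cells. The highest was Ndufaf8, the partner of Ndufaf5, with 75.6 TPM in replicate 1 and 78.2 TPM in replicate 2 (76.9 ± 1.87 TPM, SD, n = 2). Ndufaf1, which acts on the membrane arm together with Ecsit and Acad9, had 54.5 and 50.8 TPM. Ndufaf3 and Ndufaf4, which bind each other on the ubiquinone module, had 47.5 and 48.7 TPM and 43.3 and 45 TPM. These 4 factors kept their order in both pups.

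Lower levels were found for the other 4 factors. Ndufaf6, required for the early membrane arm, had 35.7 TPM in replicate 1 and 34.3 TPM in replicate 2. Ndufaf2, a paralog of the accessory subunit Ndufa12 that binds a late intermediate, had 34.9 and 24.7 TPM (29.8 ± 7.25 TPM, SD, n = 2), the widest spread among the factors. Ndufaf5, an enzyme that hydroxylates an arginine of Ndufs7, had 28.6 and 28.2 TPM. Ndufaf7, a methyltransferase, was lowest with 15.5 and 14.7 TPM (15.1 ± 0.552 TPM, SD, n = 2). Ndufaf2 ranked above Ndufaf5 in replicate 1 and below it in replicate 2.

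Assembly factors whose names lack the Ndufaf prefix had a similar median and a wider range, of 20.1-fold. The 11 such genes with a match had a median of 30.3 TPM in replicate 1 and 26.7 TPM in replicate 2. They ran from Nubpl, which delivers iron-sulfur clusters to the complex, at 5.18 and 5.24 TPM, to Dmac1, a distal membrane arm factor, at 108.2 and 101.7 TPM.

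The 7 core genes spanned 3.02-fold, a narrower range than either other class. The highest were Ndufs7, which holds the last iron-sulfur cluster before ubiquinone, with 594 TPM in replicate 1 and 722 TPM in replicate 2 (658 ± 90.6 TPM, SD, n = 2), and Ndufv2, an iron-sulfur subunit of the NADH-oxidising module, with 593 and 669 TPM. These 2 genes were above the other 5 in both pups. Ndufv1, which binds NADH and the flavin, had 352 and 365 TPM.

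The other core genes were lower. Ndufs3, a subunit of the ubiquinone module, had 343 TPM in replicate 1 and 328 TPM in replicate 2. Ndufs8, which carries a pair of iron-sulfur clusters, had 248 and 278 TPM. Ndufs1, the largest subunit and another iron-sulfur protein, had 208 and 227 TPM (218 ± 12.9 TPM, SD, n = 2). The order of the 7 core genes by TPM was the same in both pups, although Ndufs7 and Ndufv2 differed by less than 1 TPM in replicate 1.

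By place in the enzyme, the subunit genes of the 3 structural parts had similar medians. Genes of the distal membrane arm (10 genes) had a median of 488 TPM in replicate 1 and 560 TPM in replicate 2, those of the proximal membrane arm (9 genes) 546 and 536 TPM, and those of the peripheral arm (16 genes), all core genes included, 427 and 468 TPM. The ranges overlapped almost wholly, from 122 to 1155 TPM for the distal arm, 114 to 1365 TPM for the proximal arm and 179 to 877 TPM for the peripheral arm. The lowest distal and proximal values are those of Ndufb4 and Ndufa11, examined above. Next lowest were Ndufb3 in the distal arm (241 TPM) and Ndufa13 in the proximal arm (270 TPM).

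Ndufa4, first described as a complex I subunit and now held to belong to cytochrome oxidase, was the highest of all 46 genes with 1380.3 TPM in replicate 1 and 1502 TPM in replicate 2. Its paralog Ndufa4l2, which is induced by low oxygen, had 31.4 and 21.5 TPM. The log2 TPM ratio of Ndufa4l2 over Ndufa4 was -5.45 and -6.12 (-5.79 ± 0.47, SD, n = 2), so the paralog was the lower of the 2 in both pups by far more than the spread between them.

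The nuclear subunit genes of complex I had a lower median level than those of complexes III, IV and V. Core and accessory genes together had a median of 449 TPM in replicate 1 and 490 TPM in replicate 2. The 4 genes of complex II (succinate dehydrogenase) had a median of 472 and 461 TPM, close to complex I. Complex III (9 genes) had 849 and 899 TPM, complex IV (13 genes) 1136 and 1123 TPM, and complex V, the ATP synthase (15 genes), 1187 and 1224 TPM. Of these, the highest was Atp5b, the catalytic subunit of the ATP synthase, with 4286 and 4139 TPM, and the lowest Atp5g2, which encodes a form of its membrane ring subunit, with 218 and 253 TPM. These medians describe single genes and were not weighted by how many copies of a subunit each complex holds.

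The 7 core subunits encoded by the mitochondrial genome, which form the proton-pumping part of the membrane arm, had a median of 744 TPM in replicate 1 and 1125 TPM in replicate 2. They ran from mt-Nd4l with 80.6 and 135 TPM to mt-Nd1 with 4447 and 5875 TPM, a 47.9-fold range of mean levels. With the TPM of nuclear pseudogene copies added to each gene, an alternative chosen after seeing the data, the range was 7.68-fold, from mt-Nd5 to mt-Nd1. The nuclear core genes had a range of 3.02-fold. All 7 mitochondrial genes were lower in replicate 1.

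**Figure D3:**
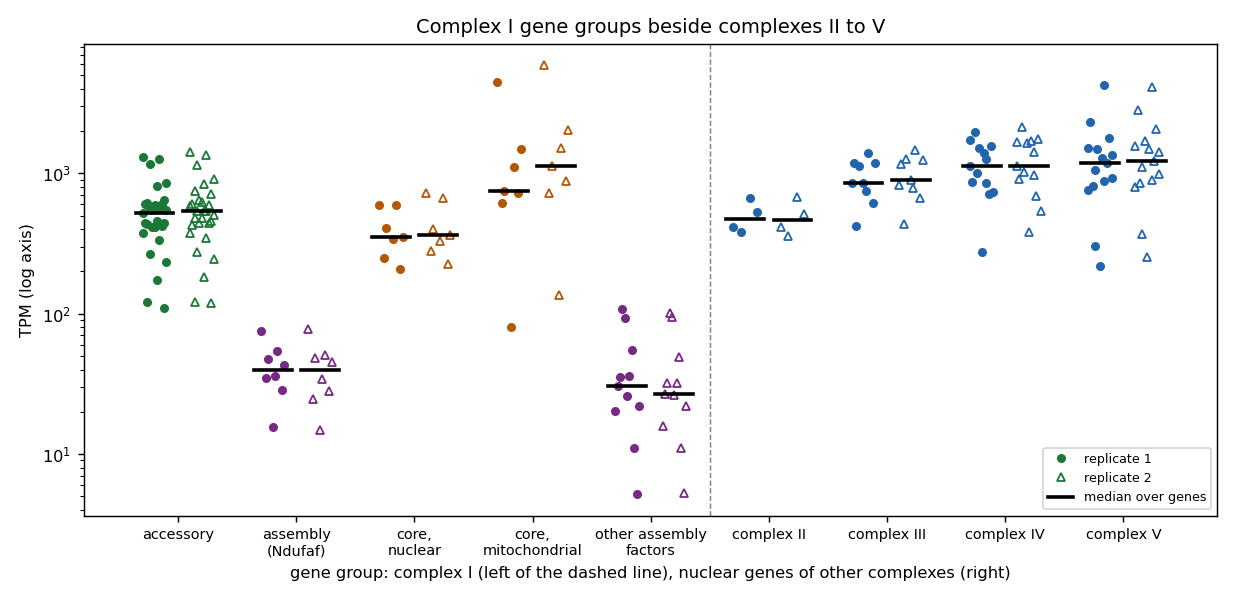
TPM of each gene (log axis) by gene group, with replicate 1 as filled circles, replicate 2 as open triangles and black bars at the median over genes. The medians of the accessory and nuclear core genes lie below those of complexes III, IV and V, and the medians of both groups of assembly factors are the lowest.

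Between the pups most complex I genes shifted little, as most genes did, and nearly all in 1 direction. Expected counts were scaled with the trimmed mean of M values (TMM) in edgeR, and the log2 ratio of replicate 1 over replicate 2 was taken. All 46 genes had a mean of at least 100 counts, and 0 of 46 were more than 1.5-fold higher in replicate 1, where 5.1% of 11873 protein-coding genes with such counts were. Likewise, 0 of 46 were more than 1.5-fold higher in replicate 2, against 0.868% of those genes. Within a log2 ratio of 0.32 either way lay 39 of the 46 genes and 81.2% of all genes. Of the 37 complex I genes with at least 100 TPM, 32 lay within it, near the 85.2% of all genes of that level. With 1 library a side there is no p-value.

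The direction was shared by nearly all of them. Of the 46 genes 43 were lower in replicate 1, against 5580 of all 11873 genes. Among the 1151 of these with at least 100 TPM, 681 were lower. The median log2 ratio of the 46 genes was -0.17, against 0.02 over all 11873 genes and -0.04 over the 1151. The median was -0.20 for accessory genes, -0.09 for assembly factors and -0.18 for core genes. The 95% counting interval of the ratio lay below 0 for 38 genes, above 0 for 2 and held 0 for 6. Counting intervals narrow as counts rise, and the same shares of all genes were not calculated. Such intervals cover counting error only, since PCR reads that carry no molecular identifier are not independent, and they leave out variation between animals.

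The sign depended in part on the scaling. The distance from other genes can hardly depend on it, because TMM scales all genes of a library by 1 factor. TPM differs from this mainly through model length. In log2(TPM + 0.1) the median of all genes was 0.15 and that of the 46 genes -0.05, with 31 of 46 below 0 and the assembly median at 0.04. Of all 11873 genes, 2901 had the lower TPM in replicate 1. Relative to the median of all genes, the 46 genes lay at -0.19 with TMM and -0.21 in TPM, and 44 of 46 were below it on each scale. Genes of the other complexes shifted by a like amount, with medians of -0.11 for complex II, -0.20 for complex III, -0.23 for complex IV and -0.21 for complex V, and the mitochondrial core genes by -0.59.

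Individual genes spread around this median. The lowest ratios were those of Ndufa6, a LYR-family subunit of the peripheral arm (log2 ratio -0.43, 95% counting interval -0.47 to -0.39), Ndufs7 (-0.42, -0.45 to -0.38) and Ndufa3 (-0.37, -0.43 to -0.31). Ndufa6 had 8455 expected counts in replicate 1 and 9810.0 in replicate 2, and Ndufs7 had 11637 and 13414. The 3 genes higher in replicate 1 were Ndufa4l2 (0.41, 0.25 to 0.57), Ndufaf2 (0.37, 0.18 to 0.55) and Ndufa2 (0.01, -0.04 to 0.05). Ndufa4l2 had 808 and 524 expected counts and Ndufaf2 had 606 and 405, the 2 lowest count levels of the 46 genes.

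Markers of other cell types also differed between the libraries. The summed TPM of 6 adipocyte markers was 2493 in replicate 1 and 104 in replicate 2, that of 6 skin markers 430 and 4.22, that of 5 cartilage markers 39 and 3.86, and that of 4 leukocyte markers 1076 and 591. All of these genes were higher in replicate 1 and none was at 0. The 4 heart markers summed to 5.52 and 6.28 TPM. The part of these cells in the lower complex I values of replicate 1 was not tested, and in whole tissue fewer cells of a type and less RNA per cell cannot be told apart.

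**Figure D4:**
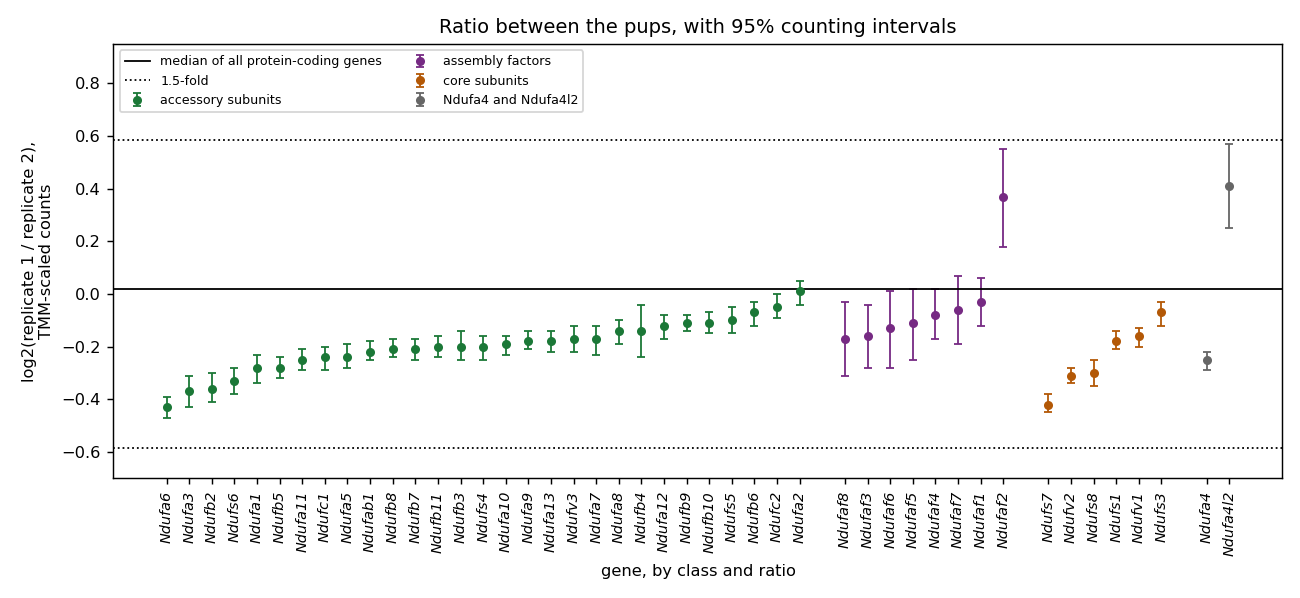
log2 ratio of replicate 1 over replicate 2 for 45 complex I genes from TMM-scaled counts, with 95% counting intervals, by class. All points lie within the dotted 1.5-fold lines, and 43 of the 45 drawn lie below the solid line at the median of all protein-coding genes (0.02).

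The transcript tables split each gene over its annotated models, 182 for the 46 genes. A single model was given for 16 genes, and in 27 genes the leading model held over 90% of the gene's TPM in both libraries. By TPM the leading model was the same in both libraries for 45 of 46 genes. Taken over the mean of both libraries, it was the same by TPM and by counts for 42 genes, and it was a protein-coding model in 42 genes by TPM and in 43 by counts. These shares are estimates of the authors' quantification and were not checked against reads. The same counts over all protein-coding genes were not calculated, so they describe these genes only.

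Ndufv3 showed the clearest choice between 2 protein-coding forms. Its short model Ndufv3-202, which lacks an exon of 1092 nt and has 312 coding nt against 1404 in Ndufv3-201, held 89.2% of the gene's TPM in replicate 1 and 92.4% in replicate 2. In expected counts it held 4479 and 4821, and the long form 1980.5 and 1425. The short form led on both scales in both pups, and the long form had the larger share in replicate 1. Among core genes, Ndufv1-201 held 70.8% and 63.4% of TPM and Ndufv1-207, also coding, 23.4% and 30.7%.

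In 4 genes the leading model by TPM was not a coding one. Ndufb4-202, a retained-intron model, held 82.1% in replicate 1 and 81.8% in replicate 2 of the TPM of Ndufb4. Both models of this gene share part of their sequence with the copy Ndufb4c. Of the stretches compared above, 33.4% in the coding model Ndufb4-201 and 30.3% in Ndufb4-202 also occur in the copy. The part of the copy in the shares of these models was not tested. Ndufa5-204, a processed transcript that ends like the coding model Ndufa5-201 but begins in another first exon, held 77.3% and 78.3% of TPM. Ndufaf8-203, a retained-intron model, held 55.5% and 55.5%, and Ndufa10-204, of the same kind, 31.8% and 31.4%. By counts the coding model Ndufa10-201 led in both libraries, with 40.1% and 40%. In Ndufaf8 the coding model Ndufaf8-201 held 42.5% of counts in replicate 1 and 41.2% in replicate 2, and Ndufaf8-203 held 41.6% and 42.1%, so each led in 1 library.

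Ndufaf4 was the gene whose leading model by TPM changed between the pups. In replicate 1 the processed transcript Ndufaf4-202 held 49.9% of TPM and the coding Ndufaf4-203 held 46.5%, while in replicate 2 they held 43.1% and 53.2%. By counts Ndufaf4-202, the longer of them, led in both. Ndufb5 differed by scale only, since its coding models Ndufb5-203 (47.5% and 49.4% of TPM) and Ndufb5-204 (43.8% and 41.3% of counts) each led on 1 scale. In Ndufab1 and Ndufc1, 2 of the most abundant genes, the leading coding model held only 44.3% and 44.8% and 50.4% and 49.9% of TPM, and retained-intron models took much of the rest.

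**Figure D5:**
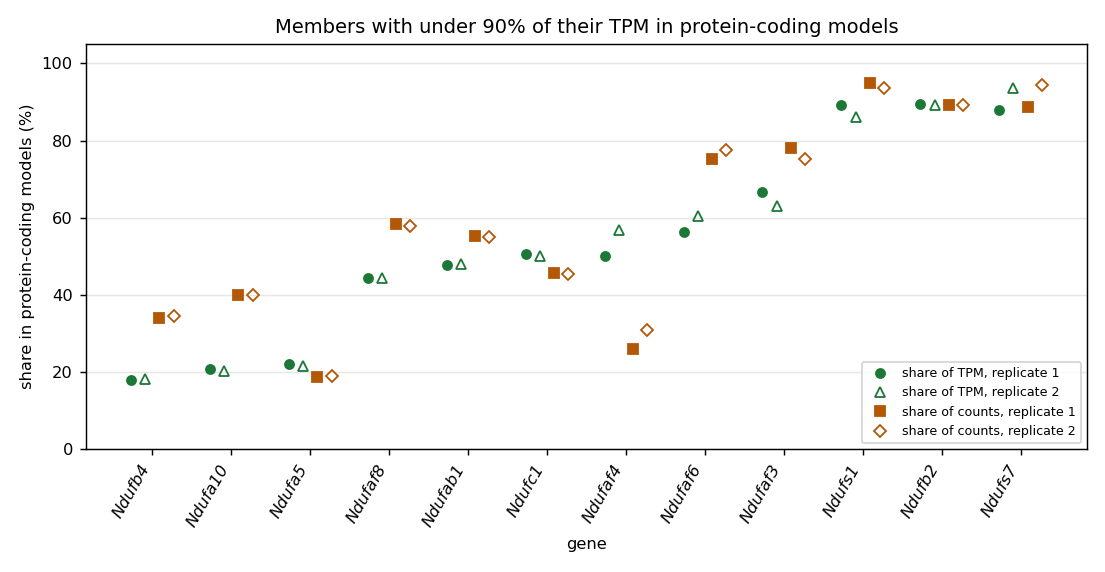
Share of each gene's TPM (green) and of its expected counts (orange) in protein-coding models, with filled symbols for replicate 1 and open symbols for replicate 2, for 12 genes under 90% of TPM in either library. Ndufb4, Ndufa10 and Ndufa5 have the lowest shares by TPM, and the 2 libraries lie close together for each gene.

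The sequence before each start and the position of neighbouring genes were not used in the choice by name. RefSeq promoters (GRCm38.p6, 250 bases before to 50 after the start) were found for 40 of the 46 genes, 42 promoters in all. The letters GCGCANGCG, which NRF1, a factor known to act on respiratory chain genes, recognises, occurred on either strand in 26.2% of these, against 6.25% of all 32851 promoters and 12.9% of those of protein-coding genes of at least 1 TPM. They were in 9 of 29 accessory, 2 of 7 assembly and 0 of 5 core promoters. The 2 promoters of Ndufa5 overlap and hold the same site, which is counted in each. Counted by gene, the shares were 25% of the 40 genes, 7.03% of all genes with a promoter and 15.2% of expressed protein-coding genes. A match describes the letters and is no evidence of binding. The 4 examples below show the match in capitals with its surroundings, because they include the 2 accessory genes of low deposited level described above and an assembly factor.
Ndufa11: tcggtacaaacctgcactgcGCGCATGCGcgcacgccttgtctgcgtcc
Ndufb4: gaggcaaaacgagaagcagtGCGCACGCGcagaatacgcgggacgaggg
Ndufs5: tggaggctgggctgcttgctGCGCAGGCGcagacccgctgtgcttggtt
Ndufaf4: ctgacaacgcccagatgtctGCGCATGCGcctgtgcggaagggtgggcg

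These stretches lie at chr17:56717682-56717730 (plus strand), chr16:37654531-37654579 (minus), chr4:123718256-123718304 (minus) and chr4:24897950-24897998 (plus). The YY1 letters AAGATGGCG occurred in 14.3% of the 42 promoters, against 1.4% of all promoters and 2.9% of those of expressed genes. They were found in Ndufa9, Ndufaf8, Ndufc1, Ndufs4, Ndufs6 and Ndufs7, each time just after the start. These letters contain ATG, and in Ndufs6 the match includes the start codon of the coding sequence shown above. A match of these letters can thus be the beginning of a coding sequence, and whether the other matches are was not tested. The letters of the estrogen-related receptors, AAGGTCA, occurred in 7.14% against 4.72% of all promoters and 3.18% of those of expressed genes. Those of the ETS factor GABPA, CCGGAAGT, occurred in 2.38% against 3.89% and 7.67%. In the 100 bases before the start alone, the share among the 42 promoters was 14.3% for NRF1 (3.45% of all promoters and 7.11% of those of expressed genes). It was 2.38% for the estrogen-related receptors (1.49% and 0.978%), 0% for GABPA (2.05% and 4.14%) and 0% for YY1 (0.234% and 0.469%). At such low shares of all promoters, 0 of 42 is not informative. No NRF1 match in these promoters overlapped a match of another motif, and a palindromic match, which reads on both strands, counted once per promoter.

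Many of the genes start next to another gene that runs the opposite way. Within 1000 bases of the start, 21 of the 46 genes (45.7%) had the start of an oppositely oriented protein-coding gene, against 1993 of the 12495 protein-coding genes of at least 1 TPM (16%). The closest pairs were Ndufs1 with the translation factor gene Eef1b2, 8 bases apart, Ndufa7 with the ribosomal protein gene Rps28, 10 bases apart, and Ndufb9 with Tatdn1, 18 bases apart. The partners' mean levels ran from 0.055 TPM for Morn5, beside Ndufa8, to 604 TPM for Rps28, so the levels of the partners ranged widely. Some neighbours overlap in exons on the other strand, such as Ndufb5 and the mitochondrial ribosomal protein gene Mrpl47 over 616 nt, and whether the counting used strand is not given in the sources used here.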

How the data were processed

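Total RNA of 2 newborn skeletal muscle samples was quantified per gene and per transcript. Per the deposited text files beside the tables, the build was mm10 and the annotation GENCODE M4, the aligner, quantifier and their versions being not given in the sources used here. Column names follow RSEM. The authors deposited expected counts, TPM, posterior means of both and, as a score of uncertainty, the posterior standard deviation of the count, which was read but supports no value here. Per the file headers, the tables also hold model and effective length in nt and, for transcripts, each model's percent of the gene's TPM.

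Gene IDs were matched without version to the later GENCODE M21 of that build (42462 of 43346, with 0.146% and 0.133% of the counts of replicates 1 and 2 unmatched). The genes and lists were chosen with earlier results of these data known: named are core and assembly genes, the 5 highest and 5 lowest accessory genes, the largest ratios each way, copies and paralogs, the extremes of other lists, and genes with an unusual leading transcript. Ndufa3 as a gene of changed model length, Ndufv3, Ndufv1, Ndufc1 and Ndufab1 transcripts, promoter examples and neighbours were chosen after their values were seen. For ratios, rounded expected counts received TMM factors (1.032 and 0.9693) in edgeR 4.0.16 under R 4.3.3, and log2 CPM used a prior count of 2. Clopper-Pearson intervals at 95% were conditional on the summed counts. Background genes needed a mean of 100 counts. The values of 1 core gene, counted in the class totals, are not reported here. The scaling was tested on simulated data. Copies were found with BLAST 2.17.0. Motifs were searched on both strands. Alternatives covered DESeq2 1.42.0 size factors, filters, pseudocounts, posterior means, lengths, fold limits and each library alone. Python 3.11.15, pandas 2.3.3 and scipy 1.17.1 were used.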

Additional observations from a re-analysis of the deposited data

How the results depend on the processing

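No paired analysis was possible because the series holds a single group. Calculated from counts per kilobase of length, the class medians were 463 TPM for accessory, 40.8 TPM for assembly and 379 TPM for core genes, and the log2 ratios to core were 0.29 and -3.21. The accessory median was 479 TPM (log2 ratio to core 0.41) for genes with an effective length of at least 300 nt, and 541 TPM (0.59) with pseudogene copies added or without Ndufb4 and Ndufa11, alternatives chosen after seeing the data. Expected counts without length correction, also chosen then, reversed the accessory to core ratio to -0.69. The assembly median was 39.4 TPM from posterior means. Either library alone gave 520 to 535 TPM for accessory, 39.5 to 39.6 for assembly and 352 to 365 for core genes, log2 ratios of 0.55 to 0.56 and -3.20 to -3.15, and 41 to 42 genes with a coding leading model. For the ratio between the pups, scaling by library size gave medians of -0.08 for all 46 genes, -0.11 for accessory, -0.005 for assembly and -0.09 for core genes, and log2 TPM (0.1 or 1 added) gave -0.05, -0.07, 0.04 and -0.12. The cause was not tested; all genes had a median of 0.02 with TMM, 0.11 by library size and 0.15 in log2(TPM + 0.1). Past a log2 ratio of 0.32, 2 genes were higher in replicate 1 (12.8% of all genes) and 5 in replicate 2 (6.06%). The remaining alternatives, DESeq2 size factors and count filters among them, moved no class median, ratio or count beyond its limit. For class medians and their ratios the limit was the spread between the libraries. For ratios between the pups it was the median half-width of the counting intervals, and for counts of genes 1.5-fold. Alternatives were also tried for single gene pairs, transcript shares, motifs and the range of the mitochondrial core genes. Of these, 168 stayed within the spread between the libraries and 39 moved beyond it (for motifs and that range, by any amount). No ratio of a gene pair changed sign. A single library always lies within the spread of both, and a gene with a single model always keeps 100% in it. The 168 therefore include values that could not move, and their number is no measure of stability. In the 100 bases before the start, motif shares of 26.2% (NRF1), 14.3% (YY1), 7.14% (estrogen-related receptors) and 2.38% (GABPA) became 14.3%, 0%, 2.38% and 0%. The shares of all promoters, given above, fell as well in this shorter window. Counting limits precision most for the assembly factors, which had 405 to 2025 counts.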

Other observations

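Nuclear copies of mitochondrial DNA took most counts of a pair of the core genes that the mitochondrial genome encodes. For mt-Nd3 the copy Gm28438 held 16621 expected counts in replicate 1 and 19415 in replicate 2, against 5537 and 7921 for mt-Nd3 (75% and 71% of the sum). For mt-Nd4l the copy Gm10222 held 4278 and 6170.0 expected counts, against 477 and 755 for mt-Nd4l (90% and 89.1%). With their copies, mt-Nd3 had 3003 and 3916 TPM and mt-Nd4l had 814.3 and 1254 TPM. Whether these copies are transcribed was not tested. The other 5 mitochondrial core genes had copies with at most 0.0132% of the summed counts, or none.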
